A study of Mus musculus with 4 samples.

Results

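The 9 mouse genes of the Notch receptors (Notch1, Notch2, Notch3 and Notch4) and of their canonical ligands (Jag1, Jag2, Dll1, Dll3 and Dll4) were followed in keratinocytes treated with a Notch pathway inhibitor. They were taken by platform gene symbol from the deposited table of non-normalized values, which gave 11 of its 25697 probes and 9 of the 16593 genes named on the array. Notch2 and Notch4 had 2 probes each, and the other 7 genes had 1 probe each. The samples were primary keratinocytes from newborn mice of the 129 background with a Pou5f1::GFP transgene, which is a fluorescent reporter, and all had received reprogramming transcription factors that the labels do not name. Total RNA was hybridised to 1 Illumina bead array in each of 4 groups: no DAPT on day 4, 2.5 uM DAPT on day 4, no DAPT on day 7, and 2.5 uM DAPT on day 7. The labels do not say how many animals or cultures stood behind an array. No group had a replicate, so a difference between 2 arrays carries no replicate error and no p-value.

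Notch receptors are single-pass membrane proteins that are activated when a Jagged or Delta-like ligand on a neighbouring cell binds them. The bound receptor is cut by an ADAM protease and then by gamma-secretase, and the freed intracellular part enters the nucleus, where it joins the DNA-binding protein Rbpj. DAPT inhibits gamma-secretase, so it acts on the receptor protein after ligand binding. In the epidermis, Notch signalling is known to promote the exit of keratinocytes from the basal layer. Some receptor and ligand genes are themselves known to be transcribed in response to Notch activity in other settings, so the question here is how their mRNA stood on the arrays with and without the inhibitor.

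The promoters of 3 members are shown because these genes gave the largest differences with DAPT in the quantile normalized values described below: Dll3 (0.97) and Notch4 (-0.80) on day 4 and Notch1 (0.49) on day 7. Each is the run of 250 bases before the annotated transcript start, from RefSeq on build GRCm38.p6, written 5′ to 3′ on the gene's strand. Capitals mark GGGCGG or its reverse complement, the GC box that Sp1 family factors are known to bind.
Notch4 promoter, chr17:34564045-34564294, plus strand: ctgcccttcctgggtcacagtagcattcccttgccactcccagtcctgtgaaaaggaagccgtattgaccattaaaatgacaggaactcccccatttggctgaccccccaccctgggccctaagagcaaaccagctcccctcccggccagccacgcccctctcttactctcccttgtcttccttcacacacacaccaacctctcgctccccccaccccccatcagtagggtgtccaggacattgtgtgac
Dll3 promoter, chr7:28301786-28302035, minus strand: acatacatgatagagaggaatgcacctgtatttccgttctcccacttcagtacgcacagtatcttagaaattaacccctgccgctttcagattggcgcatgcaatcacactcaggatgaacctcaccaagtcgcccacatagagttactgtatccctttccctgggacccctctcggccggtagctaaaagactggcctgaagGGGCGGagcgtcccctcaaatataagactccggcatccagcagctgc
Notch1 promoter, chr2:26503823-26504072, minus strand: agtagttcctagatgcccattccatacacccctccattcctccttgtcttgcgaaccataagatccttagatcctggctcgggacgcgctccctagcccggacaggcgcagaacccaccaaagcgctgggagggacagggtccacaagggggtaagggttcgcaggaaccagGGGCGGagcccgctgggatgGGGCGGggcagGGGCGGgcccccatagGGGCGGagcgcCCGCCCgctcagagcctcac
The Notch1 window held 5 GC boxes, the Dll3 window 1 and the Notch4 window 0. All 9 genes had a promoter in the table, Dll1 with 2, and 6 of these 10 windows held a GC box, against 32.7% of the 32851 windows of all genes. The letters TGGGAA, the core of the sequence that Rbpj binds, were looked for on both strands and were in 0 of the 10 windows, against 21.6% of all windows. GC made up 58.4% of the Notch4 window, 52% of the Dll3 window and 66% of the Notch1 window, with a median of 52.4% over all windows. A match is a description of these letters and not evidence of binding, and the lack of one says only that they are not in this window.

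The arrays differed in overall brightness, and this bears on every value below. Mean intensity over all probes ran from 323 without DAPT on day 7 to 472 without DAPT on day 4, with DAPT on day 4 at 365 and DAPT on day 7 at 416. Between 12281 and 14145 probes were detected per array, where detected means a deposited detection p under 0.01. Before scaling, the median of the compared probes stood at -0.56 with DAPT on day 4 and at 0.42 on day 7 on the log2 scale. Intensities were therefore background-corrected, raised by an offset of 16, quantile normalized over the 4 arrays and put on the log2 scale. The offset understates differences of dim probes. Probes of the same gene should give the same difference, so their SD was computed for each pair of arrays as a rough scale of error. For probes with a mean log2 value under 7.5 it was 0.48 for DAPT on day 4, 0.39 for DAPT on day 7, 0.56 between the days without DAPT and 0.36 between the days with DAPT. Of the keratinocyte markers 8 of 8 were detected on every array, and their summed normalized signal on day 4 was 28279 in untreated and 32009 in treated cells, and on day 7 it was 14555 and 17790. Krt14 made up most of this sum, with an intensity of 20023 of the 29960 summed on the untreated day 4 array. Against day 4, 3 of 8 were at least 2-fold lower on day 7 in untreated cells (list median -0.91) and 4 of 8 in treated cells (-0.97). Their part in the Notch1 values was not tested. Fibroblast markers were also detected, 6 of 6 on every array, with sums of 10411 and 10805 on day 4 and 20783 and 21642 on day 7. Melanocyte markers differed with DAPT on day 7, where 4 of 5 were at least 2-fold lower (Tyrp1, Dct, Pmel and Mlana, list median -1.49) and the summed signal was 777 in untreated and 166 in treated cells, against 474 and 470 on day 4. The other detected probe of Tyrp1 was at -0.65 on day 7, short of 2-fold. Dct and Pmel were not detected on the treated day 7 array, so their values rest on undetected signals. The part of melanocytes in the day 7 values of Notch1, Notch4 and Jag1 was not tested.

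Of the 9 genes, 6 were detected on all 4 arrays: the receptors Notch1, Notch3 and Notch4 and the ligands Jag1, Dll1 and Dll3. Jag2 was detected on 1 array, and Notch2 and Dll4 on none. By probe, 7 of 11 were detected on at least 1 array. The second probe of Notch4 was not above background, with detection p between 0.577 and 0.963, whereas its first probe had a detection p listed as 0 on every array. These 2 probes of 1 gene thus disagree on whether the transcript was present, and the Notch4 values below rest on 1 probe. Both Notch2 probes had a lowest detection p of 0.0342, reached on day 7, so at a limit of 0.05 Notch2 would count as detected on 2 arrays by one probe and on 1 by the other.

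**Figure D1:**
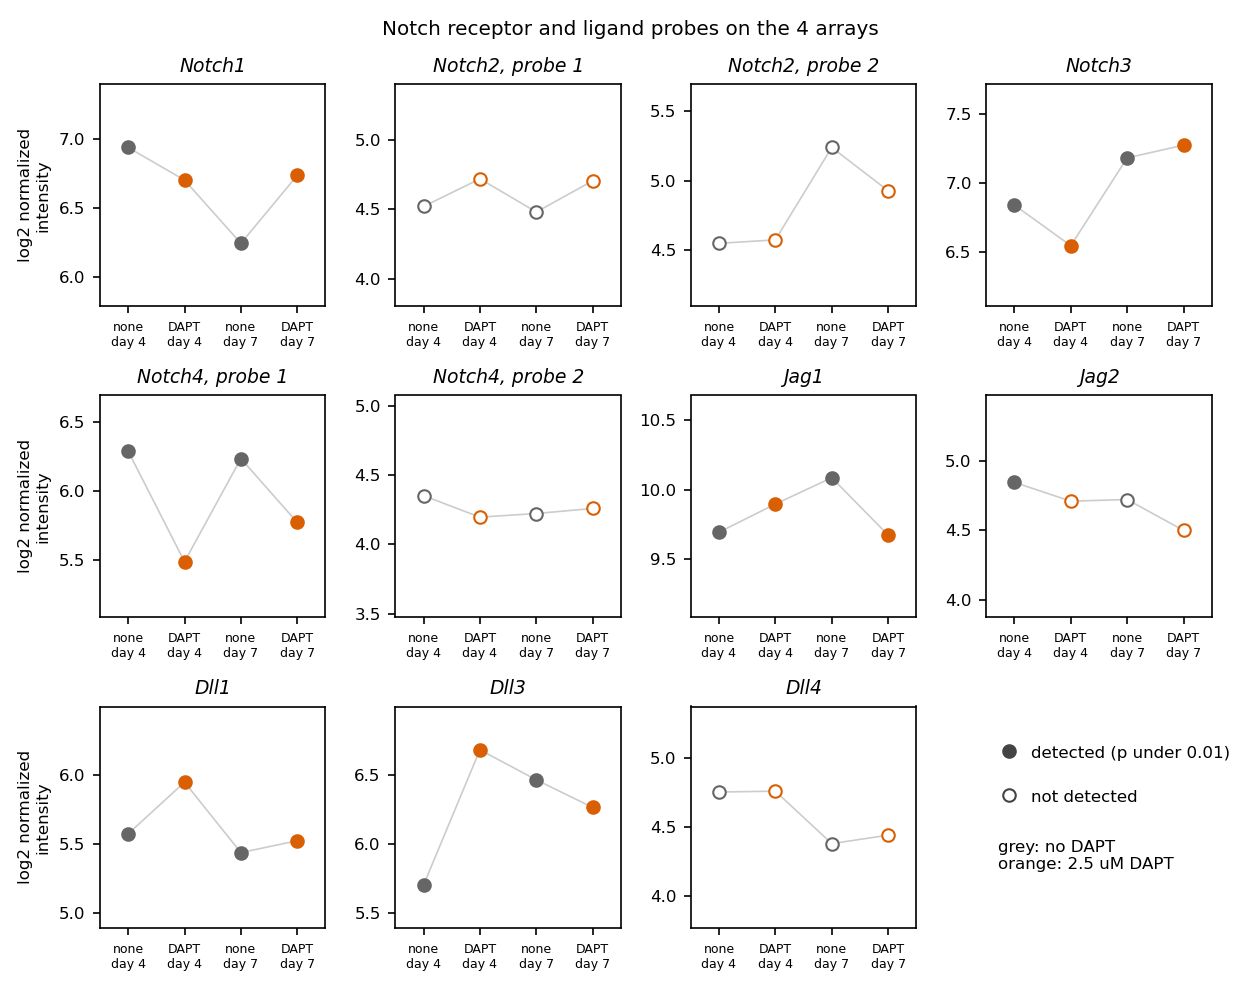
Log2 normalized intensity of each of the 11 probes (vertical axis, each panel spans 1.6 units) on the 4 arrays (horizontal axis), grey without and orange with 2.5 uM DAPT. Each point is 1 array, filled where the probe was detected and open where it was not; in these quantile normalized values Notch4 probe 1 is lower on both DAPT arrays than on both untreated ones, which with no scaling does not hold on day 7 (0.07), and Notch2 and Dll4 have open points on all 4 arrays.

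Notch1, the main receptor of the epidermis, had its lowest value without DAPT on day 7. Its intensity (probe ILMN_1241915) on day 4 was 156 in untreated and 70.8 in treated cells, and on day 7 it was 38.9 and 95.3. On the log2 normalized scale these were levels of 6.94, 6.70, 6.25 and 6.74. The untreated day 7 array thus stood below the other 3, and the step to its neighbour in the order, 0.46, was the only one past the SD between probes (0.39). The order of the arrays was that of their mean intensity, before and after normalization. Of 11450 probes detected on all arrays, 36.6% had that order before normalization and 8.76% after it. The DAPT difference of Notch1 was -0.24 on day 4 and 0.49 on day 7. Between the days it differed by -0.69 without DAPT, where 17.1% of the compared probes were as low or lower, and by 0.03 with DAPT. With median scaling the value without DAPT was -1.16, where the median of the compared probes was -0.22.

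Notch3, a receptor known from vascular mural cells and from the suprabasal epidermis, was higher on both day 7 arrays than on both day 4 arrays after quantile normalization, but with median scaling the untreated day 7 array was below the untreated day 4 array (-0.17). Its intensity (ILMN_2697380) on day 4 was 146 in untreated and 61.5 in treated cells, and on day 7 it was 86.1 and 145. The normalized levels were 6.84, 6.55, 7.18 and 7.27, in the same order of arrays. No step between neighbours in this order exceeded the SD between probes, and the highest and lowest levels, both with DAPT, differed by 0.73, against an SD of 0.36. Without DAPT the days differed by 0.34. The differences with DAPT were -0.29 on day 4 and 0.09 on day 7.

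Markers of fibroblasts and mural cells are given beside Notch3. In treated cells, 4 of 6 fibroblast markers were at least 2-fold higher on day 7, with a median of 1.28, and 1 of 6 detected mural markers, Myh11, was, with a list median of 0.60. In untreated cells, 2 of 6 fibroblast markers were (Col3a1 and Lum), with a median of 0.88, but the other detected probe of Col3a1 was at -0.05. Of the mural list Myh11 alone was again, with a list median of 0.34 and with Pdgfrb at 0.03. The brightest Acta2 probe was at 0.00, since quantile normalization gives equal ranks on 2 arrays the same value. The other detected probes of Acta2 lay between -1.24 and 0.27. On day 4 the summed signal of the mural list was 39056 in untreated and 32575 in treated cells, and on day 7 it was 39904 and 37242. Acta2 made up most of this sum, with an intensity of 38013 of the 39999 summed on the untreated day 4 array. The other members thus have little weight in it. Of the list, Rgs5 and Cnn1 were not detected on any array. In bulk RNA, fewer cells of a type and less RNA per cell cannot be told apart, and the part of these cells in the Notch3 values was not tested.

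Notch4, a receptor best known from endothelial cells, was lower with DAPT on both days by its detected probe after quantile normalization, though with no scaling the day 7 value was 0.07. Its intensity (ILMN_1220697) on day 4 was 93.5 in untreated and 23.2 in treated cells, and on day 7 it was 38.6 and 41.0. The normalized levels were 6.29, 5.49, 6.24 and 5.77, so that both arrays without DAPT stood above both with it. The arrays without DAPT differed from each other by 0.05 between the days, and those with DAPT by 0.28, less than the SD between probes in each case. The DAPT difference of Notch4 was -0.80 on day 4, a level 1.74-fold lower, and -0.46 on day 7, 1.38-fold lower. Both lay beyond the SD between probes (0.48 and 0.39) and short of 2-fold. At or below these values lay 9.58% of the compared probes on day 4 and 10.5% on day 7. The day 4 value was -1.09 with median scaling and -1.10 without an offset, past 2-fold in both, but -0.51 with an offset of 50 and -0.48 as the mean over both probes, about the SD between probes. The day 7 value was -0.16 with median scaling, and its direction depends on the scaling. The second probe (ILMN_1256134) had intensities between -16.4 and -3.83 and gives no difference.

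Endothelial markers are given beside Notch4. Of 7 on the array, Tek, Emcn and Esam were detected on all arrays, Pecam1 and Tie1 on the untreated day 4 array, and Cdh5 and Kdr on none. On day 4 their summed normalized signal was 501 in untreated and 508 in treated cells, and on day 7 it was 715 and 513. The part of such cells in the Notch4 values was not tested. Notch2, a receptor expressed in many tissues, had intensities between 1.38 and 8.87 by one probe (ILMN_2678002) and between 4.04 and 15.0 by the other (ILMN_2980247). No difference is given for it, since no array detected it at the limit used.

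Among the ligands, Jag1, which encodes Jagged1, was the member whose normalized level varied least across the arrays among those detected on all 4. Its intensity (ILMN_1257077) on day 4 was 1046 in untreated and 820 in treated cells, and on day 7 it was 841 and 852. The normalized levels were 9.69, 9.90, 10.09 and 9.67, a span of 0.41. The DAPT difference of Jag1 was 0.20 on day 4, within the SD between bright probes of 0.48, and -0.41 on day 7, against an SD of 0.32. With no scaling between the arrays these were -0.34 and 0.02, opposite in sign to the normalized values. Between the days it differed by 0.39 without and by -0.22 with DAPT, both within the SD between probes, and both signs turned with no scaling between the arrays (-0.31 and 0.05).

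Jag2, which encodes the related ligand Jagged2, was at the edge of detection. Its intensity (ILMN_2626585) on day 4 was 16.1 in untreated and 7.59 in treated cells, and on day 7 it was 6.97 and 2.92, with detection p of 0.0038, 0.0572, 0.132 and 0.0899. Only the first array passed the limit. The treated day 4 array was 1.10-fold lower for Jag2 than the untreated one, and the untreated day 7 array 1.09-fold lower. These are plain differences from undetected signals and not minimum bounds, and both turned above 0 with median scaling (log2 0.04 and 0.12). On day 7 it was not detected on either array, and no difference with DAPT is given.

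Dll1, a Delta-like ligand that activates receptors on neighbouring cells, had an intensity (ILMN_2721188) on day 4 of 46.9 in untreated and 35.7 in treated cells, and on day 7 of 18.1 and 31.3. The normalized levels were 5.57, 5.94, 5.44 and 5.52, highest with DAPT on day 4. No step between neighbours exceeded the SD between probes. The DAPT difference of Dll1 was 0.37 on day 4 and 0.09 on day 7. The day 4 direction was set by the normalization, since the deposited intensity was lower with DAPT and the value was -0.28 with no scaling between the arrays. Between the days Dll1 differed by -0.14 without and by -0.42 with DAPT, the second beyond the SD of 0.36.

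Dll3, a divergent ligand known to act inside the cell that makes it rather than to activate receptors on a neighbour, gave the largest difference among the members compared in the quantile normalized values, though with median scaling Notch1 (-1.16 between the days) and Notch4 (-1.09) exceeded it. Its intensity (ILMN_2643777) on day 4 was 53.8 in untreated and 69.3 in treated cells, and on day 7 it was 46.6 and 64.6. The normalized levels were 5.70, 6.68, 6.46 and 6.26. The untreated day 4 array stood apart from the other 3, by a step of 0.56 from its neighbour, whereas the steps among the others lay within the SD between probes. With DAPT, Dll3 differed by 0.97 on day 4, a level 1.97-fold higher, just under 2-fold, and 3.54% of the compared probes were as high or higher. It was 1.26 without an offset, 0.94 in the authors' normalized values and 0.29 with no scaling between the arrays. On day 7 it differed by -0.20, and by 0.15 with median scaling. Between the days it differed by 0.76 without DAPT, a comparison that shares the untreated day 4 array with that of DAPT on day 4, and by -0.42 with DAPT. The first of these was 0.33 with median scaling and -0.15 with no scaling, so its direction depends on the scaling. Dll4, a ligand known from sprouting vessels, had intensities between -2.37 and 12.7 (ILMN_1250828) and a lowest detection p of 0.0506, so it was not above background.

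**Figure D2:**
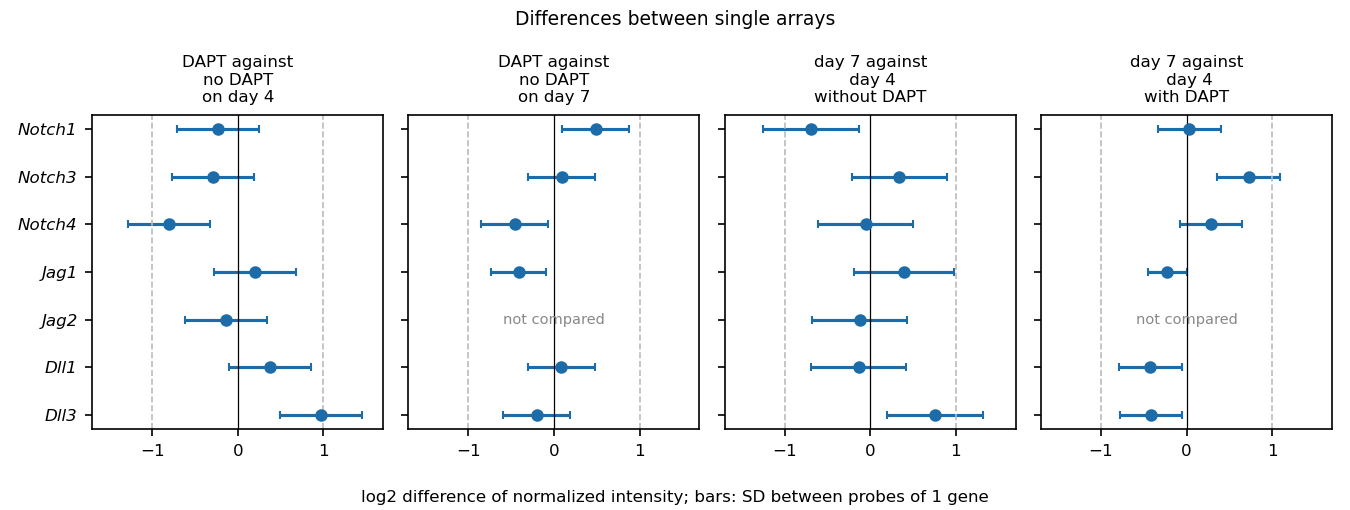
Log2 difference of normalized intensity (horizontal axis) for the 7 genes detected on at least 1 array, in the 4 comparisons of single arrays. Points are the differences, bars are 1 SD between probes of 1 gene in that comparison and not a replicate error, and dashed lines mark 2-fold; no point lies past a dashed line, with Dll3 at 0.97 on day 4 the nearest.

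No member passed 2-fold in any of the 4 comparisons, each of which shares an array with both comparisons of the other kind. For DAPT on day 4, 0 of 7 compared member probes were higher and 0 lower, where 3.18% and 5.82% of the 14558 compared probes of the array were, and the members' median was -0.14 against 0.00 for all. For DAPT on day 7, the counts were 0 and 0 of 6, where 2.67% and 0.496% of 13915 probes were past 2-fold, with a median of -0.06 against -0.02. Between the days in untreated cells, 0 of 7 were higher and 0 lower, where 6.32% and 9.65% of 14504 probes were, with a median of -0.05 against 0.01. In treated cells the counts were 0 and 0 of 6, where 3.29% and 1.97% of 14144 probes were past 2-fold, with a median of -0.09 against -0.01. With so few members, a count of 0 lies near these shares and is not a result about the group. Past the SD between probes lay 2 of 7 members with DAPT on day 4 (Notch4 and Dll3), where 39.6% of all compared probes did, and 3 of 6 on day 7 (Notch1, Notch4 and Jag1), where 35.9% did. Between the days it was 2 of 7 in untreated cells (Notch1 and Dll3), where 41.1% of probes did, and 3 of 6 in treated cells (Notch3, Dll1 and Dll3), where 50.2% did. These counts too lie near the shares of all probes.

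The one test that 4 single arrays allow is an additive fit of DAPT and day over all 15193 probes detected on at least 1 array, with limma and Benjamini-Hochberg adjustment at 0.05. For DAPT, 1 probe of the array passed (0.00658%) and 201 had an unadjusted p under 0.05 (1.32%). For day, 106 passed (0.698%) and 1104 had an unadjusted p under 0.05 (7.27%). No member passed for either. The lowest p among the members for DAPT was that of Notch4, which was lower on both DAPT arrays than on the array of the same day without it: its mean level was 5.63 with and 6.26 without DAPT, a difference of -0.63 (SE 0.38, limma adjusted p = 0.9999). For day it was that of Notch3, at 7.23 on day 7 and 6.69 on day 4, a difference of 0.53 (SE 0.38, limma adjusted p = 0.9525). With an SE near 0.38 for every member, these p-values do not show that the genes were the same in the groups. This SE is mostly a spread that limma pools over all probes, weighted as 19.5 degrees of freedom against 1 from the gene itself. It is thus not a replicate error measured for each gene. The fit's 1 residual degree of freedom is the difference between the DAPT effects of the days, so it cannot separate noise from an effect that depends on the day, and its p-values rest on these 4 arrays alone.

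The DAPT differences of the days come from separate pairs of arrays. Of the 6 members detected on all arrays, Notch4 (-0.80 and -0.46) and Dll1 (0.37 and 0.09) had the same sign on both days in the quantile normalized values, while Notch1 (-0.24 and 0.49), Notch3 (-0.29 and 0.09), Jag1 (0.20 and -0.41) and Dll3 (0.97 and -0.20) did not. Opposite signs were common: 65.4% of the 11450 probes detected on all arrays had them, so 4 of 6 is near the share of all probes. Overall array brightness also differed in opposite directions with DAPT on the 2 days, lower on day 4 and higher on day 7. The part of brightness in these values was not tested beyond the scaling alternatives.

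**Figure D3:**
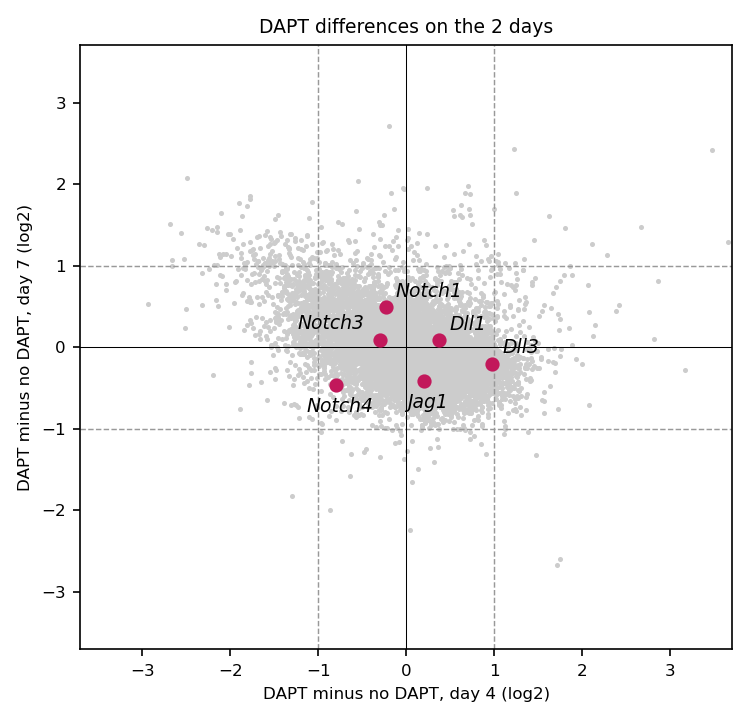
DAPT minus no DAPT in log2 normalized intensity on day 4 (horizontal axis) and day 7 (vertical axis) for the 11450 probes detected on all 4 arrays (grey) and the 6 members among them (coloured, labelled). Dashed lines mark 2-fold; the members lie within the grey cloud, with Notch4 at -0.80 and -0.46 and Dll3 at 0.97 and -0.20, values whose day 7 signs turn with no scaling.

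**Figure D4:**
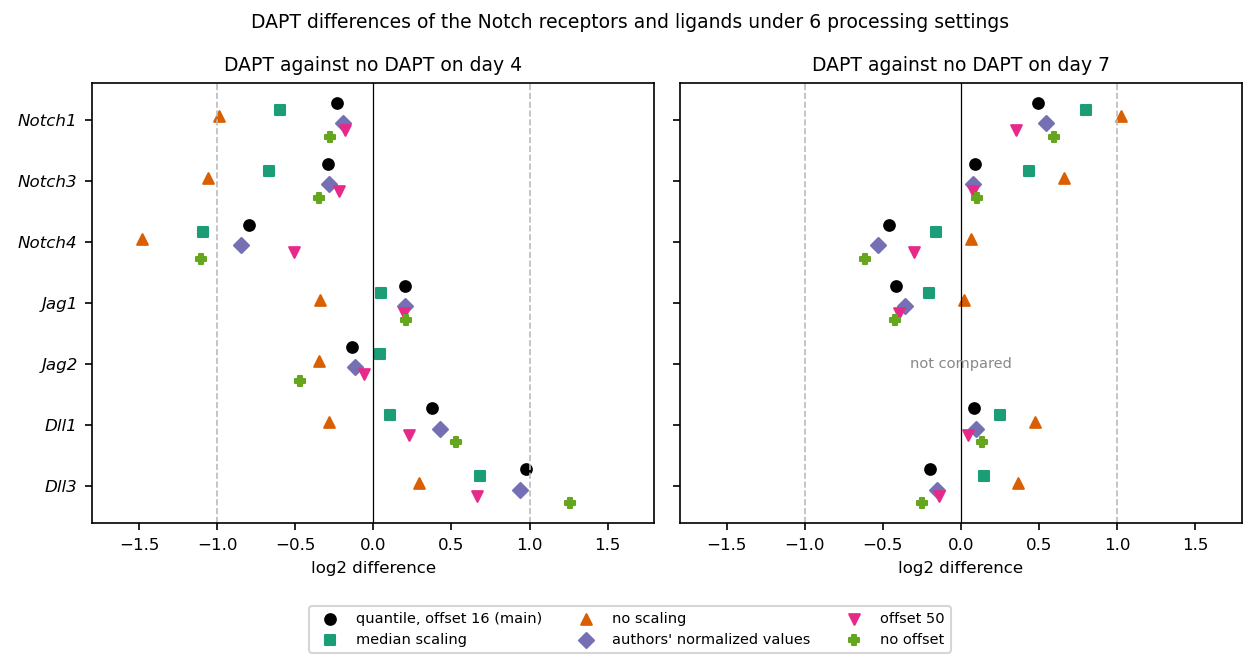
Log2 difference with DAPT on day 4 (left) and day 7 (right) under 6 processing settings, each setting a symbol and each row a gene; dashed lines mark 2-fold. The points without scaling lie to the left on day 4 and to the right on day 7 of the main ones for each gene shown, and Notch4 on day 4 is below 0 under each of the 6.

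The other genes of the pathway were taken from 7 lists of 49 genes in all, of which 45 were on the array, each by its brightest probe. For DAPT on day 4, none of 32 compared genes passed 2-fold upward, where 3.81% of all genes did, and 4 passed it downward, where 3.60% did, and the median was -0.27 against 0.08 for all genes. The 4 were Aph1a, a gamma-secretase subunit, at -1.81, and Rfng, a fringe glycosyltransferase that modifies receptors, 2.03-fold lower. The others were Snw1, a nuclear cofactor, 2.94-fold lower, and Epn1, an endocytic adaptor, whose bound was 1.62-fold. The Rfng and Snw1 folds on day 4 are taken from undetected signals in treated cells and are not minimum bounds. With DAPT on day 7, 1 of 31 was higher, Aph1a at 1.05, where 1.71% of all genes were, and 0 were lower, where 0.495% were. Of the targets, Hes1, a transcriptional repressor, differed by -0.80 on day 4 and 0.12 on day 7, and Hey1, a related repressor, by -0.31 and 0.03. Hey1 was detected on only 1 array of each pair, so its values rest on an undetected signal. The targets Hes5, Hes7, Hey2 and Heyl were not detected on any array. Nrarp, a feedback inhibitor of Notch taken from the list of negative regulators, differed by -0.30 and -0.90. The medians of that list were -0.30 and -0.20. Rbpj itself was not detected on any array.

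Between the days, the noncanonical ligands held the largest differences of the pathway genes. Without DAPT, 3 of 33 genes were at least 2-fold higher on day 7, where 7.49% of all genes were, and 3 lower, where 6.58% were. With DAPT, 6 of 31 were higher, against 3.07%, and 1 lower, against 2.05%. Dner, a transmembrane protein described as a noncanonical ligand, had day 4 intensities of 160 in untreated and 153 in treated cells, and day 7 intensities of 345 and 541. Both day 7 arrays thus stood above both day 4 arrays, and Dner differed between the days by 1.94 without and 1.40 with DAPT. The microfibril proteins Mfap2 and Mfap5 differed by 1.49 and 1.39 with DAPT, beside the higher fibroblast markers given above, whose part was not tested. Egfl7, a secreted protein of endothelial cells, differed by -2.21 without and -1.36 with DAPT by its brightest probe, but its other detected probes lay between -0.79 and 0.01 and at -0.11. The remaining genes past 2-fold were Fbxw7 at 1.28, with its other detected probe at 0.63, Dtx3 at 1.28, Aph1a at -1.75 and Epn1 at least 1.77-fold lower without DAPT, and with DAPT Aph1a at 1.11, Maml2 at 1.01 and Snw1 2.12-fold higher. The Snw1 fold is taken from an undetected day 4 signal and is not a minimum bound.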

How the data were processed

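Per the file headers, the deposited non-normalized table holds an intensity for each probe on a linear scale, with a detection p-value beside it. The submitters' processing notes name BeadStudio without a version. The values show that background was subtracted before deposit: 5177 to 5847 probes per array lie below 0. The authors' normalized intensity table, made by a method that the labels do not state, served as an alternative. Groups came from the sample titles, since the treatment label of every sample is DAPT. With neqc of limma 3.58.1 (R 4.3.3), background was corrected by control signals that neqc derives from the detection p-values, an offset of 16 added, quantile normalization applied and log2 taken. Depth has no counterpart here; the number of arrays limits the precision.

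Probes were named through the platform annotation, which gave 23978 of 25697 probes 1 gene and left 1719 unnamed here. The Entrez identifiers of all 11 member probes led to the same symbols in RefSeq GRCm38.p6. A probe entered a comparison if detected on at least 1 of its 2 arrays. Where the dimmer array did not detect it, the bound is set against the higher of that array's lowest detected signal and the probe's own. Where the probe's own signal was the higher, the value is the plain difference and not a minimum. The SD between probes pools, over genes with more than 1 compared probe in the same brightness band, the spread of their log2 differences. Every member was named, and pathway genes were named if past 2-fold or brightest. The targets, Rbpj and Nrarp were added after their values were seen. The rule for naming genes of like pattern asked for a span of 1 log2 unit on 4 detected arrays, which 0 members met. Members and lists were chosen with earlier results of these data known. The steps were tested on simulated data. Tables were made with pandas 2.3.3 and numpy 2.4.6 under Python 3.11.15, and figures with matplotlib 3.10.9.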

Additional observations from a re-analysis of the deposited data

Results flagged for a closer look

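For 4 members detected on all arrays, the DAPT difference had opposite signs on the 2 days. Of the 11450 probes detected on all arrays 65.4% had opposite signs too, so this is not particular to the members. Each rests on 1 pair of arrays per day, and the difference between the days was not tested. Day 7 minus day 4, the DAPT effects differed by -1.17 for Dll3, 0.73 for Notch1, -0.62 for Jag1 and 0.38 for Notch3, on the log2 scale. For Dll3 the sign on day 7 turned with median scaling, where both days were above 0 (0.68 and 0.15). For Jag1 both signs turned with no scaling between the arrays (-0.34 and 0.02).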

How the results depend on the processing

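No member passed 2-fold in the settings of the report, and 0 passed the additive fit under any alternative. With median scaling, 1 member passed 2-fold with DAPT on day 4 (Notch4, -1.09) and 1 between the days without DAPT (Notch1, -1.16). Under this scaling the median of the compared probes was -0.17 with DAPT on day 4 and 0.19 on day 7. Between the days it was -0.22 without and 0.12 with DAPT. The remaining alternatives with a change were chosen after seeing the data. With no scaling between the arrays, 2 passed with DAPT on day 4 (Notch3 and Notch4), 1 on day 7 (Notch1), 2 between the days without DAPT (Notch1 and Notch4) and 1 with DAPT (Notch3). With no offset, 2 passed with DAPT on day 4 (Notch4 at -1.10 and Dll3 at 1.26). The authors' values, no background correction, an offset of 50, the other detection filters and the gene summaries left the count at 0. In all, 240 of the recomputed member differences moved by less than the SD between probes and 18 by more. All 18 came with no scaling between the arrays. Many of the 240 could not move, since the detection filters and gene summaries leave the difference of a gene with 1 probe unchanged. The 240 are thus no measure of how stable the differences are. At a detection p of 0.05, 9 member probes were detected in place of 7. Over all probes, without the gene summaries, the counts past 2-fold ran from 623 to 3334 around 1310 for DAPT on day 4, from 146 to 1534 around 441 on day 7, from 1283 to 4976 around 2316 between the days without DAPT and from 340 to 1969 around 744 with it. The additive limma fit called 0 or 1 probe around 1 for DAPT (28 to 443 at an unadjusted p under 0.05) and 0 to 90 around 106 for day (332 to 1458), and by gene 0 to 12 and 40 to 190. Pathway genes past 2-fold numbered 1 to 12 around 4 on day 4, 0 or 1 around 1 on day 7, 5 to 11 around 6 without DAPT and 3 to 8 around 7 with it.

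No paired analysis was possible because the labels give no replicate numbers, beyond the additive fit, which compares DAPT within each day. With day left out, 0 members passed for DAPT. Leaving out an array leaves the additive fit with no residual, so it was not run. Low signal limits Notch2, Notch4's second probe and Dll4, not above background on any array, and Jag2, above it on 1.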
